A study of Mus musculus with 7 samples.

Results

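The genes described here are 39 components of the sarcomere, the contractile unit of striated muscle, measured by RNA sequencing in bulk skin tumours. They are the rows of the count table for a named list of thick-filament, thin-filament, Z-disc and M-band genes, 39 of the 55423 features in that table. By the fibre type in which the protein is best known, 12 were taken as fast isoforms, 8 as slow isoforms, 2 as developmental isoforms and 17 as shared between fibre types. The tumours came from 2 groups of mice on a C57BL/6J background, in which tamoxifen painted on shaved back skin activates Ivl-CreERT2, a Cre recombinase driven by the involucrin promoter, in the IVL+ population of the epidermis. In Ivl:BRAFV600E mice the recombination turns on the BRAFV600E oncogene. Ivl:BRAFV600E-SOX2LSL mice carry the same alleles and in addition Rosa26LSL-SOX2-IRES-eGFP, which expresses SOX2 and eGFP after recombination. The labels give an age of 7 to 10 weeks for induction in both groups, and tumours were taken at clinical endpoint. The 3 Ivl:BRAFV600E tumours are named here by mouse as RBAV23, RBAV25 and RBAV27 (female, female, male), and the 3 Ivl:BRAFV600E-SOX2LSL tumours as RBBD12, RBBD5 and RBBD9 (male, male, female). RBAV23 and RBAV25 also carried a tdRFP reporter at Rosa26, and RBAV27 did not. Every Ivl:BRAFV600E-SOX2LSL tumour was collected sooner after induction than every Ivl:BRAFV600E tumour, so the time since induction and the genotype cannot be told apart. The comparison asks how tumours of the IVL+ population differ when SOX2 is expressed together with BRAFV600E.

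In a sarcomere, thick filaments of myosin pull on thin filaments of actin. Each myosin has a pair of heavy chains, which hydrolyse ATP, and light chains, and the fibre type follows largely from the heavy chain gene in use: Myh4 (type IIb), Myh1 (type IIx) and Myh2 (type IIa) in fast fibres, Myh7 in slow fibres, and Myh3 (embryonic) and Myh8 (perinatal) in developing or regenerating fibres. Troponin and tropomyosin on the thin filament make contraction depend on calcium, alpha-actinin anchors thin filaments at the Z-disc, and titin spans from the Z-disc to the M-band. Skin tumours of keratinocyte origin are not striated muscle, but mouse skin lies on a thin sheet of striated muscle, the panniculus carnosus. Myh3, Myh2, Myh1, Myh4 and Myh8 lie in this order on the plus strand of chromosome 11, from 67078300 (the start of Myh3) to 67308634 (the end of Myh8) on GRCm38. Acta1, skeletal alpha-actin, lies on the minus strand of chromosome 8 from 123891769 to 123894751.

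Of this cluster, Myh4 and Myh1 stand at the extremes of the ratios between tumours described below, and Myh2 and Myh8 are their neighbours. Acta1 has the highest level per length. The 250 bases before their RefSeq starts (GRCm38.p6) are therefore shown, 5′ to 3′ on the strand of the gene, with matches to the E-box (CANNTG, the motif of the myogenic factors), the MEF2 site and the CArG box (the motif of serum response factor) in capitals, searched on both strands. The windows are chr11:67237562-67237811 (plus strand) for Myh4, chr11:67199852-67200101 (plus) for Myh1, chr11:67170777-67171026 (plus) for Myh2, chr11:67276874-67277123 (plus) for Myh8 and chr8:123894776-123895025 (minus) for Acta1.
Myh4: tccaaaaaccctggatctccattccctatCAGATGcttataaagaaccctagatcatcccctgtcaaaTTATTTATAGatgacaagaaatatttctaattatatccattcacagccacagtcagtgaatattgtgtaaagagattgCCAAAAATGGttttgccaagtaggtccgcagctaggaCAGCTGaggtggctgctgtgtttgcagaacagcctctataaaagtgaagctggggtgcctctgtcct
Myh1: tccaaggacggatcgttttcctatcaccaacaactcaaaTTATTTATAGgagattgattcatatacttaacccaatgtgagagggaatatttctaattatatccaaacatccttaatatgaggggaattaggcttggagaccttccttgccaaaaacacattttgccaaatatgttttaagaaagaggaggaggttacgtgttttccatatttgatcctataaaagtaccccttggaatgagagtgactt
Myh2: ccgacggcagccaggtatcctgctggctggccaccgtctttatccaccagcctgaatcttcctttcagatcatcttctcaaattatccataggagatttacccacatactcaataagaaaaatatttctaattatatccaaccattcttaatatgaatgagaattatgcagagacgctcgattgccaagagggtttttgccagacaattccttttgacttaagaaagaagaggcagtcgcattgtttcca
Myh8: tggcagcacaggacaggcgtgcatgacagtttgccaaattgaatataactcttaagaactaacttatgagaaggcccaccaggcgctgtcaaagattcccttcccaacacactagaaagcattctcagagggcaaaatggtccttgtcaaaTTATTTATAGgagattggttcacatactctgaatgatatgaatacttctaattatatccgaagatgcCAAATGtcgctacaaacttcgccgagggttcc
Acta1: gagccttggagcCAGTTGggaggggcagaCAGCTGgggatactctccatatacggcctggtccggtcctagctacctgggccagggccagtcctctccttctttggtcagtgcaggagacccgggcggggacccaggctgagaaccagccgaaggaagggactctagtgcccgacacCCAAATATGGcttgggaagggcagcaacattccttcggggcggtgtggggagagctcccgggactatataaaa
Myh4 held 2 E-boxes, 1 MEF2 site and 1 CArG box in this window, Acta1 2 E-boxes and 1 CArG box, and Myh8 1 E-box and 1 MEF2 site. Myh1 held 1 MEF2 site and no E-box, and Myh2 held none of the motifs. The MEF2 match was the same run of letters, TTATTTATAG, in Myh4, Myh1 and Myh8, and began 182, 211 and 99 bases before the start. A RefSeq window was found for 28 of the 39 genes, of which 24 held an E-box, 7 a MEF2 site and 5 a CArG box. Over all 32851 windows of this length, 66.2% held an E-box, 2.92% a MEF2 site and 1.47% a CArG box. These matches describe the letters only.

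Between 23565432 and 31152826 reads were counted on genes per tumour, and a floor of 3 counts, below which a level was not told from 0, corresponded to 0.0839 to 0.143 CPM in a single tumour (counts per 1 M of the library size after TMM scaling). For a gene with 0 counts in all Ivl:BRAFV600E tumours, the fold is a bound on counts summed over the tumours of each genotype, with 3 counts over the whole Ivl:BRAFV600E group (0.0416 CPM) in place of 0, and a tumour with many counts weighs most in it. Sox2 was at 0.238 to 0.716 CPM in the Ivl:BRAFV600E tumours and at 155 to 182 CPM in the Ivl:BRAFV600E-SOX2LSL tumours, and EGFP had 0 counts in the former and 110 to 139 CPM in the latter, as the labels state. The keratinocyte gene Krt5 was at 2371 to 3899 CPM in all 6 tumours. Intervals and floors here cover counting error only and not the spread between mice. PCR duplicates are not independent molecules, so the intervals can be too narrow even for counting error. In bulk RNA, more cells of a type and more RNA per cell cannot be told apart.

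The 39 sarcomere genes together held a larger share of the counts in each Ivl:BRAFV600E-SOX2LSL tumour than in any Ivl:BRAFV600E tumour. They took 0.00135%, 0.00111% and 0.00247% of the gene counts in RBAV23, RBAV25 and RBAV27, against 0.433%, 0.438% and 0.101% in RBBD12, RBBD5 and RBBD9. The groups did not overlap, and RBBD9 was the lowest of its genotype. The mean was 0.00165% ± 0.000727 (SD, n = 3) against 0.324% ± 0.193 (SD, n = 3), with p = 0.1 in a two-sided exact permutation test, the smallest value that 3 tumours against 3 allow. Titin (Ttn), with the longest messenger RNA of the list, gave 56.0%, 49.1% and 53.9% of these counts in the 3 Ivl:BRAFV600E-SOX2LSL tumours. Without it the share was 0.00105% to 0.00171% in the Ivl:BRAFV600E tumours and 0.0468% to 0.223% in the others, again with no overlap.

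Of the 39 genes, 35 reached 5 reads in some tumour and entered edgeR's quasi-likelihood test, with p-values adjusted over all 24433 genes tested. By this test 28 rose in Ivl:BRAFV600E-SOX2LSL tumours and 0 fell at an adjusted p below 0.05 (0 lower also at an unadjusted p below 0.05, and 0 lower by DESeq2 or limma-voom). Over all genes tested, 2.39% were called higher and 1.51% lower. In 33 of the 35 there was no overlap between the groups, all with the Ivl:BRAFV600E-SOX2LSL tumours higher, where 18.2% of all genes tested had this order. The 4 genes left out by the filter were Myh7, Myl2, Myl3 and Tnnc2. A gene near 0 in the Ivl:BRAFV600E tumours could pass this filter only through the other group, so its direction was fixed in advance. Of the 39 members, 5 had no count in the Ivl:BRAFV600E group and 13 had 1 to 3. For those tested, the lack of falls and the order of the groups are no evidence of a direction. For Myh3, Myh8 and Tnnc1 the order also rests on counts near the floor of 3. The median log2 fold change of the 35 was 6.59, or 6.40 with the genes that had no count in the Ivl:BRAFV600E group set to their lower bound, beside a median of 0.04 over all genes tested. The study derived a SOX2 signature from these same libraries, so for a gene in that signature a call here is not independent evidence of a direction. The overlap with the 39 genes was not counted.

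The calls depended on single tumours, over all genes as in the members. Without RBAV23, 31 members had an unadjusted p below 0.05, beside 2409 of all 23953 genes tested that were higher. At an adjusted p below 0.05 in this fit, 0 members passed and 0.0501% of all genes tested were called higher. Without RBAV25 it was 1 member (0.136% of all genes), without RBAV27 10 (0.515%) and without RBBD5 13 (0.574%), and no member passed in all 6 fits that left out a tumour. Over these fits the log2 fold change ran from 2.91 to 3.33 for Cryab, the narrowest range among the tested members, from 8.84 to 9.78 for Acta1, and from 8.70 to 13.22 for Nrap, the widest. With sex as a covariate 18 members passed (0.659% of all genes), 5 fast, 1 slow and 12 shared. With limma-voom it was 12 members (4.80%) and with DESeq2 30 (10.5% of all genes with an adjusted p).

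**Figure D1:**
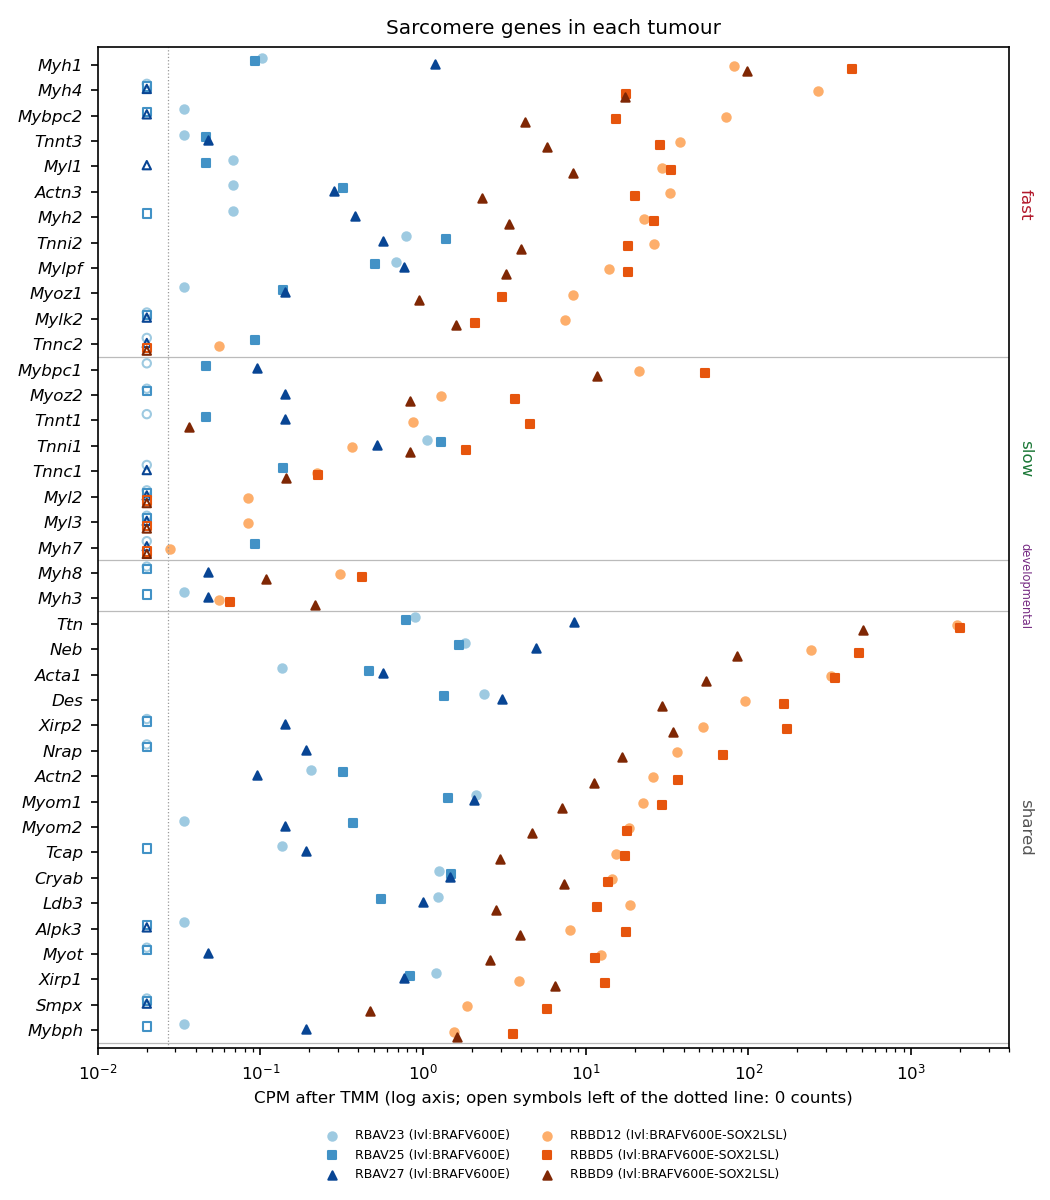
Level of each of the 39 sarcomere genes in each tumour, as CPM after TMM on a log axis, by fibre type. Blue symbols are the 3 Ivl:BRAFV600E tumours and orange to brown symbols the 3 Ivl:BRAFV600E-SOX2LSL tumours, and open symbols at the left mark 0 counts. In 33 genes the orange to brown symbols lie right of all blue ones, for Myh3, Myh8 and Tnnc1 on counts near the floor of 3. RBBD9 (brown triangles) is mostly the lowest of the orange to brown symbols.

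Among the fast isoforms, 10 of 12 rose (11 were tested), 5 of them also with sex as a covariate. The adult fast heavy chains were low or at 0 in the Ivl:BRAFV600E tumours. In the Ivl:BRAFV600E-SOX2LSL tumours Myh1 and Myh4 ranked 2 and 4 of the 39 in mean level per length (32.2 and 16.9 CPM per kilobase of exon), and Myh2 ranked 20. These ranks pool unlike tumours. Per kilobase Myh1 was at 12.9, 68.1 and 15.5 CPM in RBBD12, RBBD5 and RBBD9. Myh4 was at 44.9, 2.94 and 2.90 CPM, so its rank rests on RBBD12. Myh1 was at 0.102, 0.0924 and 1.19 CPM in RBAV23, RBAV25 and RBAV27, and at 81.7, 433 and 98.8 CPM in RBBD12, RBBD5 and RBBD9, a log2 fold change of 8.86 (SE 1.18, edgeR adjusted p = 0.0196). Myh2 was at 0.0682, 0 and 0.380 CPM against 22.8, 26.5 and 3.36 CPM (log2 fold change 6.90, SE 1.14, edgeR adjusted p = 0.0290). Myh4 had 0 counts in every Ivl:BRAFV600E tumour and 9650, 547 and 484 counts (270, 17.7 and 17.5 CPM) in RBBD12, RBBD5 and RBBD9. On summed counts that is at least 2719-fold higher with RBBD12 and at least 423-fold higher without it, but the adjusted p was 0.0561 by edgeR, and the tumours of the group lay far apart, with RBBD5 at 0.0656 and RBBD9 at 0.0647 of the level in RBBD12. Under 3% of the 150-base windows of Myh1, Myh2 or Myh4 also occurred in another myosin gene (2.49%, 2.06% and 0.511%), and how reads from such windows were counted is not stated.

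The fast light chains and regulators moved with the heavy chains. Myl1, the alkali light chain of fast myosin, had 2, 1 and 0 counts against 1059, 1029 and 230, a ratio of 590 after scaling (95% counting interval 202 to 2863, edgeR adjusted p = 0.00775). Mylpf, the fast regulatory light chain, was at 0.508 to 0.760 CPM against 14.0, 18.2 and 3.21 CPM, a smaller log2 fold change of 4.17 (SE 0.65, adjusted p = 0.0269). In contrast to Myl1, Mylpf had 11 to 20 counts in each Ivl:BRAFV600E tumour. Mylk2, the kinase that phosphorylates the regulatory light chain in skeletal muscle, had 0 counts in the Ivl:BRAFV600E tumours and 268, 64 and 44 in the others, at least 95.7-fold higher on summed counts (44.3-fold without RBBD12, adjusted p = 0.0353). Mybpc2, the fast myosin-binding protein C, had 1, 0 and 0 counts against 2600, 475 and 118, a ratio of 2438 whose interval was wide (437 to 96341, adjusted p = 0.0266). This ratio rests on 1 count and mostly on RBBD12, without which the log2 fold change was 9.05 in place of 10.72.

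Fast troponins, which sit on the thin filament, differed in how much signal the Ivl:BRAFV600E tumours held. Tnnt3, fast troponin T, had 1 count in each Ivl:BRAFV600E tumour and 1368, 888 and 159 in the others, a ratio of 615 (interval 210 to 2983, edgeR adjusted p = 0.0109). Tnni2, fast troponin I, lies next to it on chromosome 7 (142441808 to 142444410, against 142498836 to 142516009 for Tnnt3) but was measurable in every tumour, at 0.784, 1.39 and 0.570 CPM against 26.2, 18.1 and 4.01 CPM (log2 fold change 4.14, SE 0.73, adjusted p = 0.0327). Tnnc2, fast troponin C, had only 2 counts in RBAV25 and 2 in RBBD12 and was not tested. Its counts cannot be read as a level, since 74% of its exon bases overlap Ube2c on the opposite strand, which had 466 to 1340 counts per tumour, and whether the counting used the strand is not stated. At the Z-disc, Actn3, the alpha-actinin of fast fibres, was at 0.0682, 0.323 and 0.285 CPM against 33.2, 20.1 and 2.31 CPM (log2 fold change 6.40, SE 1.10, adjusted p = 0.0313), and Myoz1, the calsarcin of fast fibres, at 0.0341 to 0.143 CPM against 8.36, 3.04 and 0.939 CPM (log2 fold change 5.31, SE 0.97, adjusted p = 0.0364). In all 11 tested fast genes every Ivl:BRAFV600E-SOX2LSL tumour was above every Ivl:BRAFV600E tumour.

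Of the slow isoforms, 2 of 8 rose (5 were tested), and the classical slow myosin genes were at or near 0. Myh7, the slow and cardiac beta heavy chain, had 2 counts in RBAV25 and 1 in RBBD12 and none elsewhere. Myl2 and Myl3, the slow light chains, each had 3 counts in RBBD12 and none in the other 5 tumours. These levels are at or under the floor, so no fold is given. The genes that rose were Mybpc1, the slow myosin-binding protein C, and Myoz2, the calsarcin of slow fibres. Mybpc1 had 0, 1 and 2 counts against 765, 1667 and 326 (21.4, 54.0 and 11.8 CPM), a ratio of 702 (interval 240 to 3406, edgeR adjusted p = 0.00926). Myoz2 had 0, 0 and 3 counts against 46, 113 and 23, a ratio of 46.3 (interval 15.6 to 227, adjusted p = 0.0491), and the call was held in 1 of the 6 fits without a tumour.

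The slow troponins did not pass the test. Tnnt1, slow troponin T, was at 0, 0.0462 and 0.143 CPM against 0.867, 4.57 and 0.0361 CPM, so RBBD9 lay within the range of the Ivl:BRAFV600E tumours (log2 fold change 4.88, SE 1.64, edgeR adjusted p = 0.126; DESeq2 adjusted p = 0.0109). Tnni1, slow troponin I, was the exception to the pattern of the list. It was at 1.06, 1.29 and 0.523 CPM in the Ivl:BRAFV600E tumours and at 0.364, 1.85 and 0.830 CPM in the others, with a log2 fold change of 0.07 (SE 0.63, adjusted p = 0.956). The groups overlapped, and the sign of the difference changed with the scaling. Tnnc1, the troponin C of slow and cardiac muscle, had 0, 3 and 0 counts against 8, 7 and 4, a ratio of 4.84 (interval 1.42 to 25.5, adjusted p = 0.305).

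Neither developmental heavy chain passed the edgeR test, although 1 of the 2, Myh8, had an unadjusted p of 0.0109. Myh3 had 1, 0 and 1 counts against 2, 2 and 6, a ratio of 3.82 (interval 0.814 to 35.8, adjusted p = 0.354), and Myh8 had 0, 0 and 1 counts against 11, 13 and 3, a ratio of 20.6 (interval 3.40 to 844, adjusted p = 0.0975). DESeq2 gave no adjusted p for either gene. Myh7, Myh3 and Myh8 together made up 0.104% (95% exact binomial interval 0.0571% to 0.175%), 0.102% (0.0570% to 0.168%) and 0.271% (0.124% to 0.514%) of the counts on the 6 heavy chain members in RBBD12, RBBD5 and RBBD9. Of the heavy chain genes outside this set, the smooth muscle gene Myh11 had 606, 303 and 300 counts in these tumours, and Myh7b had 15, 8 and 8.

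Of the 17 genes shared between fibre types, 16 rose and all 17 had groups that did not overlap. In the thin filament, Acta1 was at 0.136, 0.462 and 0.570 CPM against 320, 340 and 55.0 CPM (log2 fold change 9.31, SE 0.95, edgeR adjusted p = 0.00927). Its level was the highest of the 39 per length in each of the 3 Ivl:BRAFV600E-SOX2LSL tumours, at 209, 221 and 35.8 CPM per kilobase of exon. Nebulin (Neb), the ruler of the thin filament, was at 1.81, 1.66 and 4.94 CPM against 242, 477 and 85.1 CPM (log2 fold change 6.59, SE 0.81, adjusted p = 0.0165). Ttn rose from 0.886, 0.785 and 8.50 CPM to 1931, 2009 and 509 CPM (log2 fold change 8.79, SE 1.25, adjusted p = 0.0238). RBAV27, with 179 Ttn counts, held the highest level of Ttn, Neb, Acta1 and Myh1 among the Ivl:BRAFV600E tumours and remained far below the lowest tumour of the other group in each.

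At the Z-disc, alpha-actinin 2 (Actn2) was at 0.0950 to 0.323 CPM against 26.1, 36.9 and 11.3 CPM (log2 fold change 6.86, SE 0.61, edgeR adjusted p = 0.00707) and was called in 5 of the 6 fits without a tumour, more than any other member. Telethonin (Tcap), which caps titin, was at 0 to 0.190 CPM against 15.3, 17.4 and 2.96 CPM (log2 fold change 6.70, SE 0.97, adjusted p = 0.0241). Myotilin (Myot), which binds alpha-actinin, had 1 count in the Ivl:BRAFV600E group and 444, 354 and 71 in the other, a ratio of 664 (interval 119 to 26242, adjusted p = 0.0138). Ldb3, a PDZ and LIM protein of the Z-disc, moved less, from 0.554 to 1.23 CPM to 18.7, 11.7 and 2.82 CPM (log2 fold change 3.56, SE 0.70, adjusted p = 0.0426). Desmin (Des), the intermediate filament that links Z-discs, was at 2.35, 1.34 and 3.04 CPM against 95.4, 165 and 29.5 CPM (log2 fold change 5.43, SE 0.69, adjusted p = 0.0179). Cryab, alphaB-crystallin, a chaperone of desmin and titin that other tissues also express, had the smallest standard error of the tested members, at 1.26 to 1.48 CPM against 14.5, 13.7 and 7.40 CPM (log2 fold change 3.08, SE 0.31, adjusted p = 0.00926), and 17.0% of its exon bases overlap Hspb2 on the opposite strand, which had 1 to 14 counts.

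In the M-band, which crosslinks thick filaments, Myom1 was at 1.43 to 2.11 CPM against 22.7, 29.6 and 7.19 CPM (log2 fold change 3.41, SE 0.52, edgeR adjusted p = 0.0266) and Myom2 at 0.0341 to 0.369 CPM against 18.5, 17.9 and 4.69 CPM (log2 fold change 6.27, SE 0.84, adjusted p = 0.0196). The actin-binding Xin proteins and Nrap, known from the ends and junctions of myofibrils, rose as well. Xirp2 had 0, 0 and 3 counts against 1875, 5330 and 957, a ratio of 2078 (interval 711 to 10077, adjusted p = 0.00948). Nrap was at 0, 0 and 0.190 CPM against 36.6, 69.9 and 16.6 CPM (log2 fold change 9.40, SE 0.99, adjusted p = 0.0108), and Xirp1 at 0.760 to 1.19 CPM against 3.89, 13.1 and 6.50 CPM (log2 fold change 3.06, SE 0.49, adjusted p = 0.0281). RBBD5 was the highest tumour for all 3 of these genes. Alpk3, an alpha kinase of muscle, had 1 count against 286, 543 and 109, a ratio of 716 (interval 128 to 28323, adjusted p = 0.0108).

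The remaining shared genes were low. Mybph, a myosin-binding protein H, was at 0.0341, 0 and 0.190 CPM against 1.54, 3.56 and 1.62 CPM (log2 fold change 4.89, SE 0.86, edgeR adjusted p = 0.0331). Its exons overlap Adora1 on the opposite strand over 49.9% of their bases, and Adora1 had 1 to 12 counts in the Ivl:BRAFV600E tumours and 3 to 32 in the others. Smpx, a small muscle protein, was the shared gene that did not pass, with 0 counts in the Ivl:BRAFV600E group and 67, 178 and 13 in RBBD12, RBBD5 and RBBD9, at least 65.7-fold higher (30.3-fold without RBBD5, adjusted p = 0.0585, and 1.69e-06 by DESeq2).

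**Figure D2:**
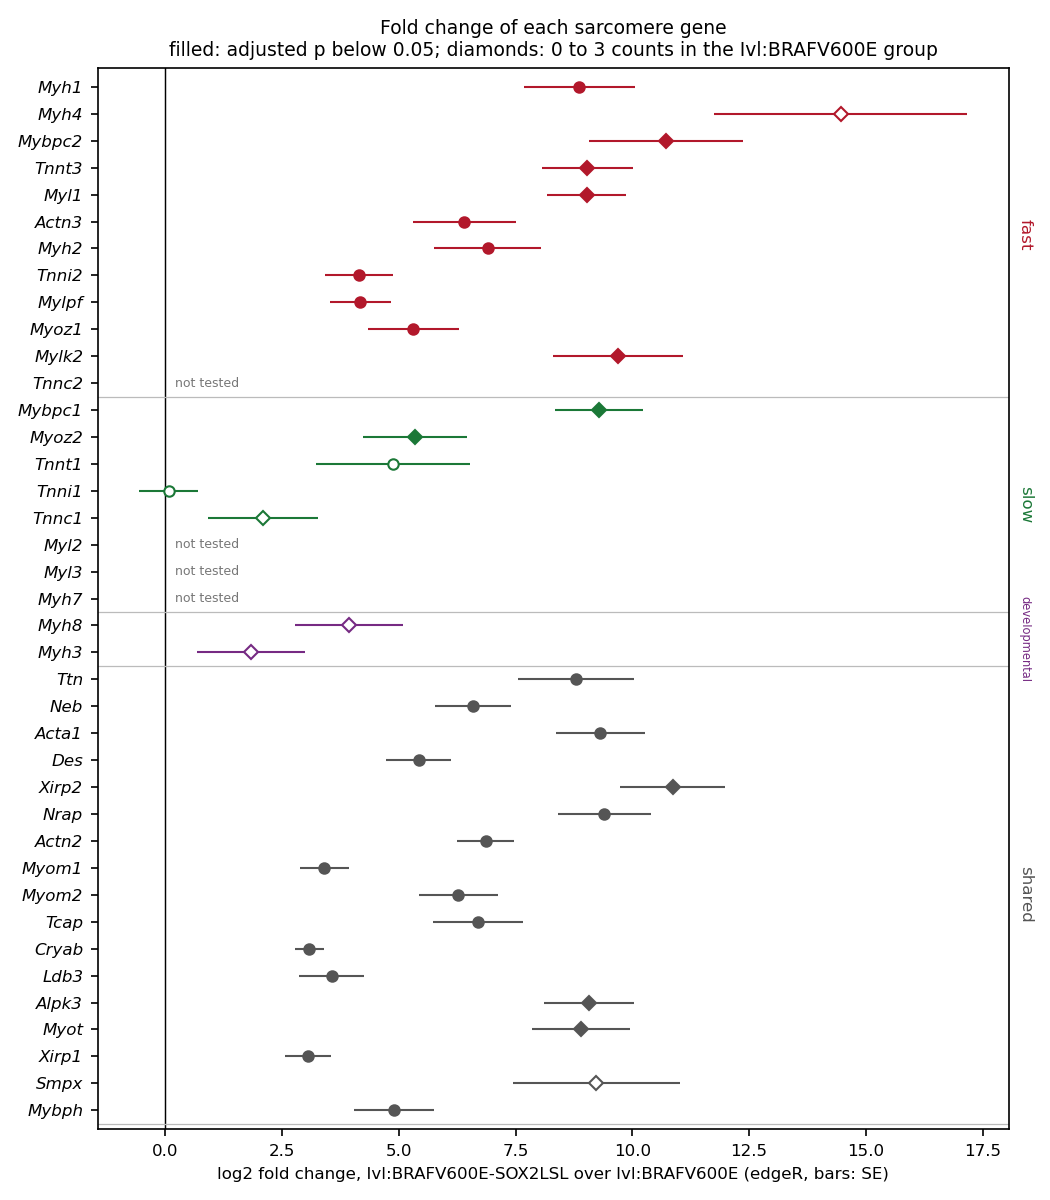
Log2 fold change of each sarcomere gene between the genotypes (edgeR, bars are SE), by fibre type. Filled symbols passed an adjusted p of 0.05 and diamonds are genes with 0 to 3 counts in the Ivl:BRAFV600E group, whose fitted value depends on the prior count. Filled symbols make up 10 of the fast, 2 of the slow, 0 of the developmental and 16 of the shared genes.

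Fast and slow members of one protein family were next compared within each tumour. Tnni2 and Tnni1 were the only pair with counts of both genes in all 6 tumours. Per kilobase of exon, Tnni2 made up 64.1%, 72.0% and 72.4% of this pair in RBAV23, RBAV25 and RBAV27, and 99.4%, 95.9% and 92.1% in RBBD12, RBBD5 and RBBD9. On counts, without regard to length, its shares were 42.6%, 51.7% and 52.2% against 98.6%, 90.8% and 82.8%. The mean log2 ratio of Tnni2 to Tnni1 counts was -0.07 ± 0.31 (SD, n = 3) against 3.91 ± 2.02 (SD, n = 3), with no overlap and an exact permutation p = 0.1, the smallest possible. Troponin T was 98.4%, 89.8% and 99.6% Tnnt3 per kilobase in the Ivl:BRAFV600E-SOX2LSL tumours, and the alkali light chains were 99.7%, 100% and 100% Myl1 against Myl3. The regulatory light chains were likewise 99.7%, 100% and 100% Mylpf against Myl2. In myosin-binding protein C the slow form led in 2 of the 3 tumours. Mybpc2, the fast form, held 81.0%, 26.3% and 31.2% of its pair per kilobase in RBBD12, RBBD5 and RBBD9, and 77.3% (95% exact binomial interval 75.8% to 78.7%), 22.2% (20.4% to 24.0%) and 26.6% (22.5% to 30.9%) of its counts. Myoz1 held 92.2%, 60.1% and 67.2% of the calsarcin pair per kilobase. On counts its share was 86.7% (82.6% to 90.1%), 45.4% (38.5% to 52.5%) and 53.1% (38.3% to 67.5%), so the leading calsarcin of RBBD5 depends on the length correction. Tnnc2 held 2 of 10, 0 of 7 and 0 of 4 counts of the troponin C pair, which is too few to read, beside the overlap with Ube2c given above. In the Ivl:BRAFV600E tumours the pairs of troponin T, troponin C, myosin-binding protein C, calsarcin and alkali light chain had 0 to 6 counts each, too few to compare between the genotypes. Of the regulatory light chain pair, Mylpf had 11 to 20 counts there and Myl2 had 0.

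The adult fast heavy chains showed the same split between RBBD12 and the other tumours of its genotype. Of the Myh1, Myh2 and Myh4 counts, Myh4 made up 72.1% in RBBD12 (95% exact binomial interval 71.3% to 72.9%), 3.72% in RBBD5 (3.42% to 4.03%) and 14.6% in RBBD9 (13.4% to 15.9%). Myh1 made up 21.8%, 90.7% and 82.6% in the same order, and Myh2 6.08%, 5.55% and 2.81%. RBBD12 held mostly type IIb message and RBBD5 and RBBD9 mostly type IIx message, on 13384, 14723 and 3312 counts. Per kilobase the shares moved by under 2 percentage points (Myh4 73.7%, 3.94% and 15.4%). These are 3 single tumours, and the intervals cover counting error and not the spread between mice.

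**Figure D3:**
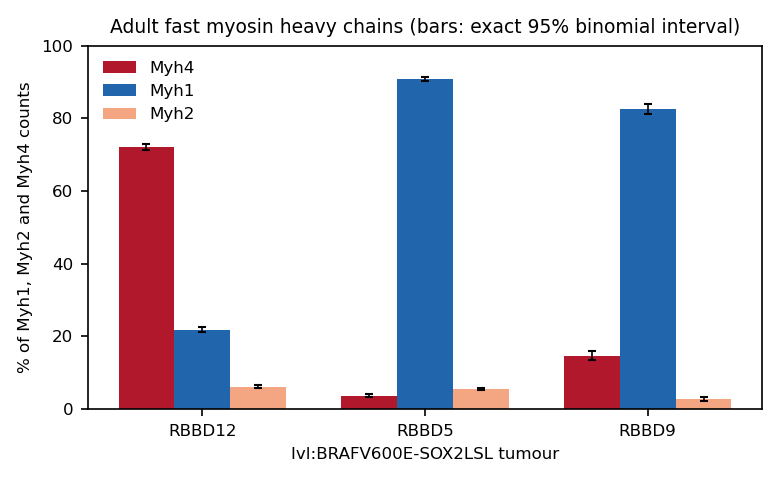
Share of each adult fast myosin heavy chain in the Myh1, Myh2 and Myh4 counts of the 3 Ivl:BRAFV600E-SOX2LSL tumours, in percent, with exact 95% binomial intervals. Myh4 leads in RBBD12 with 72.1%, and Myh1 leads in RBBD5 with 90.7% and in RBBD9 with 82.6%.

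Although RBBD12 and RBBD5 had nearly the same share of counts on sarcomere genes, single genes differed widely between them. Among the 29 genes with at least 20 counts in each Ivl:BRAFV600E-SOX2LSL tumour, the ratio of RBBD5 to RBBD12 ran from 0.0656 for Myh4 to 5.30 for Myh1, with a median of 1.14. The fast genes Myh4, Mybpc2 (0.211), Mylk2 (0.276), Myoz1 (0.364) and Actn3 (0.607) were the 5 lowest. After Myh1, the highest were Xirp1 (3.36), Xirp2 (3.29) and the slow genes Myoz2 (2.84) and Mybpc1 (2.52). Ttn (1.04) and Acta1 (1.06) were near equal. The fast genes had a median of 0.692 (n = 11) and the shared genes of 1.36 (n = 16). In RBBD9, 26 of the 29 genes were below RBBD12, with a median ratio of 0.264, and the exceptions were Xirp1 (1.67), Myh1 (1.21) and Mybph (1.06). Between RBBD9 and RBBD5, all 29 ratios were below 1, from 0.115 for Actn3 to 0.987 for Myh4 (median 0.228), and the interval for Myh4 included 1 (0.871 to 1.12).

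**Figure D4:**
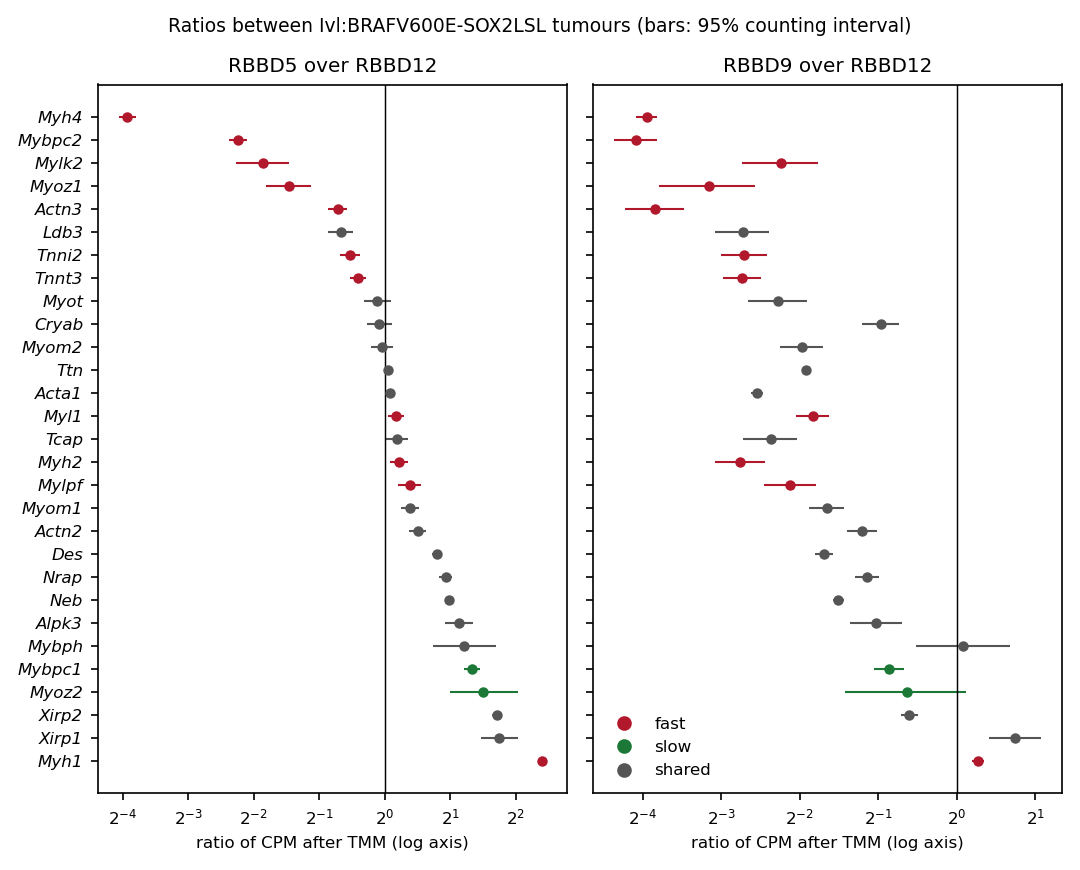
Ratio of CPM after TMM between Ivl:BRAFV600E-SOX2LSL tumours for the 29 sarcomere genes with at least 20 counts in each (log axis, bars are 95% counting intervals, colours are fibre type). On the left, RBBD5 over RBBD12 runs from Myh4 (0.0656) to Myh1 (5.30), and on the right most genes of RBBD9 are below RBBD12.

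Markers of other tissues also set RBBD12 apart. Of 4 adipocyte genes, Adipoq and Plin1 were at 4.20 and 8.36 CPM in RBBD12 and at most at 0.108 and 0.285 CPM in the other 5 tumours. Lep was at 0.951 CPM in RBBD12 and at most at 0.143 CPM elsewhere, whereas Fabp4, the most abundant, was at 36.4 CPM in RBBD12 and at 10.7 to 43.6 CPM in the others. The smooth muscle genes Acta2, Actg2 and Cnn1 were highest in RBBD12, at 169, 16.9 and 3.75 CPM against at most 56.9, 2.60 and 1.52 CPM. Smtn and Rgs5 of that list were lowest there. The fibroblast and leukocyte sums were highest in RBBD12, at 6091 and 176 CPM against at most 3637 and 92.2 CPM. The summed level of 8 keratinocyte genes was lowest there (17490 CPM, against 52865 and 58746 CPM in RBBD9 and RBBD5). This sum does not stand for every gene of the list. Trp63 was at 281 CPM in RBBD12 and at 260 to 321 CPM in the other tumours, and Ivl at 72.5 CPM against 22.0 to 208 CPM. Each remaining gene of the list was lowest in RBBD12, with Krt5 at 2371 CPM against 2561 to 3899 CPM. The part of all these markers in the difference between the tumours was not tested.

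Other genes of the sarcomere, taken from a list of 44 that holds no member, were less uniform. Of the 42 tested, 19 rose and 1 fell by edgeR. Among those with the smallest p-values were Trim63, the ubiquitin ligase MuRF1 (0 counts in the Ivl:BRAFV600E group, at least 55.2-fold higher, edgeR adjusted p = 0.0131) and Csrp3, muscle LIM protein (at 0 to 0.0475 CPM against 5.17, 15.9 and 3.72 CPM, adjusted p = 0.0132). Without RBAV23, RBAV25, RBAV27 or RBBD5, 0, 1, 4 and 9 of them passed as higher. The gene that fell was Tnnt2, cardiac troponin T, at 11.1 to 15.0 CPM against 3.69, 5.47 and 4.84 CPM (log2 fold change -1.43, SE 0.23, adjusted p = 0.0269). It no longer passed the edgeR test when RBAV23, RBAV25, RBAV27, RBBD5 or RBBD9 was left out, or with sex as a covariate. Other cardiac isoforms stayed low. Myh6 had 0 counts in all 6 tumours, Mybpc3 was at 0.0682 to 0.416 CPM and Tnni3 at 0.162 to 0.508 CPM with overlapping groups, and Actc1 was at 0.0475 to 0.139 CPM against 0.140 to 0.324 CPM (adjusted p = 0.253).

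Skeletal muscle genes that act outside the sarcomere moved with the members. Of 13 such genes, 12 rose (0 without RBAV23, 1 without RBAV25 or RBAV27, and 5 without RBBD5), and their summed level was 5.90 to 8.98 CPM in the Ivl:BRAFV600E tumours against 529, 431 and 120 CPM in RBBD12, RBBD5 and RBBD9. Atp2a1, the calcium pump SERCA1 of fast fibres, was at 0.231 to 0.998 CPM against 214, 157 and 57.0 CPM (log2 fold change 7.94, SE 0.71, edgeR adjusted p = 0.00707). The 13 genes did not share 1 order. Ckm, muscle creatine kinase, was highest in RBBD12 like Myh4, at 67.6, 21.3 and 5.88 CPM. Mb and Ryr1 were highest in RBBD5 like Myh1, at 4.56, 20.7 and 3.32 CPM and at 97.4, 159 and 29.6 CPM. Of 9 satellite cell and myoblast genes 7 were tested and 2 rose by edgeR (0 without RBAV23, RBAV25, RBAV27 or RBBD5, and 1 without RBBD9). By DESeq2 5 were higher, and 6 at an unadjusted edgeR p below 0.05, where 3551 of all 24433 genes tested were higher. Those that rose by edgeR were Myf6 (at least 36.1-fold higher, 18.5-fold without RBBD5, adjusted p = 0.0495) and Chrna1 (log2 fold change 4.77, SE 0.84, adjusted p = 0.0332). Myod1 and Myog had no count in the Ivl:BRAFV600E tumours and reached 0.907 and 1.65 CPM in RBBD5, and Pax7 was at 0 to 0.0950 CPM against 0.181 to 0.324 CPM, with no overlap. Their adjusted p-values were 0.145, 0.138 and 0.163.

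Marker lists of other cell types were summed in the same way. Smooth muscle and pericyte genes summed to 237 to 310 CPM against 203 to 321 CPM, with 0 of 9 called by edgeR (0 higher and 3 lower at an unadjusted p below 0.05, and 2 lower by DESeq2), and Acta2 and Myh11 overlapped between the groups. Of the 7 heart genes, Nppb alone rose, from 6.38 to 10.4 CPM to 42.1, 41.7 and 23.7 CPM (log2 fold change 2.00, edgeR adjusted p = 0.0253), a call that was lost without RBAV23, RBAV25, RBAV27 or RBBD5, while Nppa and Myh6 had 0 counts in every tumour. Keratinocyte genes summed to 94811 to 145824 CPM in the Ivl:BRAFV600E tumours and to 17490 to 58746 CPM in the others with no overlap. None of the 8 passed by edgeR (0 higher and 3 lower at an unadjusted p below 0.05, and 2 lower by DESeq2), and the basal marker Krt5 overlapped between the groups. The 3 whose groups did not overlap were Krt1 (32193 to 45410 CPM against 1010 to 13009 CPM) and Krt10 (28856 to 36337 CPM against 424 to 7213 CPM), keratins of differentiating layers, and the desmosomal gene Dsp (9911 to 15092 CPM against 4374 to 9525 CPM). Leukocyte genes summed to 27.6 to 49.4 CPM against 78.0 to 176 CPM, with 2 of 4 higher (0 without RBAV23, RBAV25, RBAV27, RBBD5 or RBBD9). Fibroblast, endothelial, adipocyte and nerve genes had overlapping sums and 0 calls by edgeR. At an unadjusted p below 0.05 there were 1 higher fibroblast gene, 1 higher and 1 lower endothelial gene, 1 higher adipocyte gene and 1 lower nerve gene, and DESeq2 called 1 fibroblast gene higher and 1 endothelial and 1 nerve gene lower. The part of these shifts in the levels of the sarcomere genes was not tested.

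**Figure D5:**
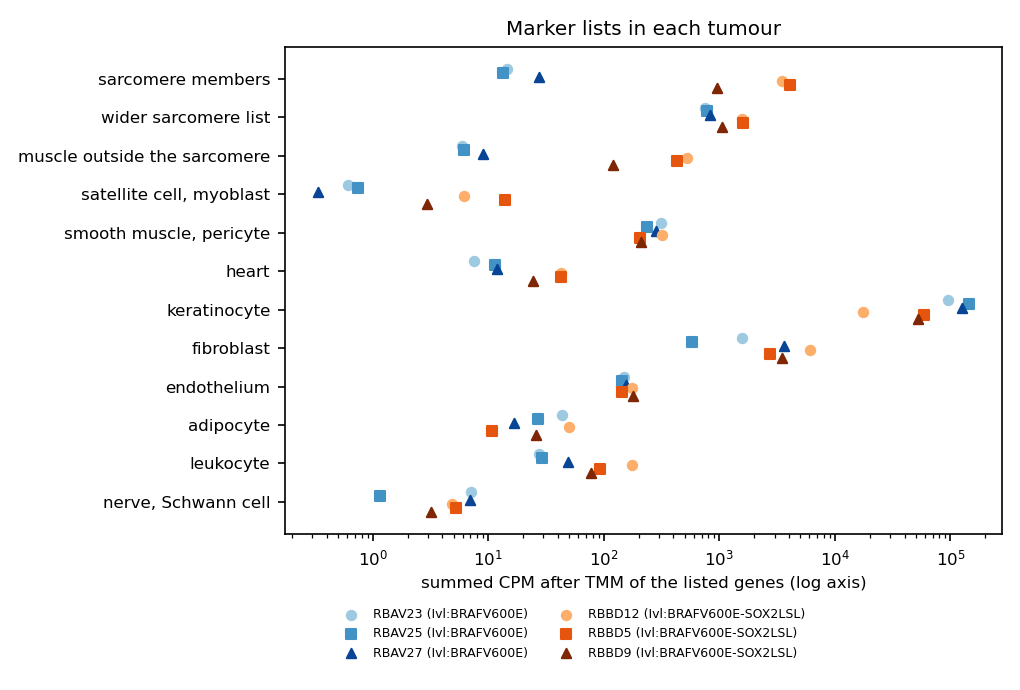
Summed CPM after TMM (log axis) of the 39 sarcomere genes and of lists of other genes in each tumour, with blue symbols for the 3 Ivl:BRAFV600E tumours and orange to brown symbols for the 3 Ivl:BRAFV600E-SOX2LSL tumours. The sums of sarcomere members and of muscle genes outside the sarcomere are separated between the genotypes, and those of smooth muscle and endothelial genes overlap. The keratinocyte sum is lower in the Ivl:BRAFV600E-SOX2LSL tumours, though single genes of that list such as Krt5 and Trp63 overlap.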

How the data were processed

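Bulk tumour RNA was sequenced after depletion of ribosomal RNA. Per the submitters' processing notes, the authors used FastQC 0.11.8, Trim Galore, HISAT2 2.1.0 on GRCm38 and featureCounts (Subread 1.6.3). The authors deposited whole-number read counts per gene without normalisation, and the handling of strand and of multimapping reads is not given in the sources used here. Columns are named by mouse. The labels list 4 Ivl:BRAFV600E and 3 Ivl:BRAFV600E-SOX2LSL tumours, for which the test had been designed. The mice of 6 columns are listed with their genotype in the study's source data, 3 per group. The mouse of 1 more column is not listed there under its name. Its column name begins like those of Ivl:BRAFV600E-SOX2LSL tumours, while the labels leave room only for another Ivl:BRAFV600E tumour, so it was not used and the test was run on 3 against 3. The tumours came from separate mice.

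A gene was kept if 5 or more reads were counted in 1 or more tumours (24433 genes). Scaling by TMM and the quasi-likelihood test, with genotype as the only factor, were run in edgeR 4.0.16 (R 4.3.3), and p-values were adjusted by Benjamini-Hochberg and called below 0.05. The biological coefficient of variation was 0.372. Levels per kilobase used the exon bases of GENCODE M21, and shares between genes are given on that scale, on counts, or on both, as stated. All 39 members are named, of a wider list the 3 genes with the smallest p and the cardiac isoforms, and markers with a value beside a result. A result under this rule is not reported here. Marker genes named one by one were chosen after their values were seen. The members and lists were chosen with earlier results of these data known. Alternatives were DESeq2 1.42.0, limma-voom 3.58.1 with sample weights, size factors of DESeq2, upper-quartile scaling, TMM without muscle genes, other filters, sex as a covariate and each tumour left out in turn. Scripts were tested on simulated counts. Promoter windows are from RefSeq (GRCm38.p6). Python 3.11.15, pandas 2.3.3, SciPy 1.17.1 and matplotlib 3.10.9 were used for the rest.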

Additional observations from a re-analysis of the deposited data

How the results depend on the processing

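Of the log2 fold changes of the tested genes, 353 alternative values kept their direction and their side of the threshold, 120 kept the direction but no longer passed, 5 newly passed and 3 turned. Those that turned were of Tnni1, at -0.0076 with upper-quartile scaling, -0.21 without RBAV27 and -0.69 without RBBD5, and its values with 1 tumour left out ran from -0.69 to 0.48. The number of sarcomere genes called higher was 28, and it was 12 with limma-voom, 18 with sex as a covariate and 0 to 29 with 1 tumour left out, while DESeq2 gave 30, size factors and upper-quartile scaling 27 each, no filter 30, and filterByExpr and TMM without muscle genes 28 each. Of the wider list, 19 were higher and 1 lower, against 9 higher and 0 lower with sex as a covariate, and 0 to 19 higher and 0 to 1 lower with 1 tumour left out. Of the markers of other cell types, 5 were higher and 0 lower by edgeR. DESeq2 gave 10 higher and 6 lower, limma-voom 4 lower, size factors 3 higher, sex as a covariate 1 higher, no filter and filterByExpr 1 lower each, and the fits without 1 tumour 0 to 5 higher and 0 to 3 lower. The cause was not tested. The difference in share of counts was 0.323 percentage points, 0.404 without the 10 genes with the most counts, and 0.266 to 0.434 with 1 tumour left out. No paired analysis was possible because the columns carry mouse names and no replicate number of the labels. Depth limits the fold changes, since 5 of the members had no count in the Ivl:BRAFV600E group and 13 had 1 to 3, so that their values are bounds or wide ratios.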
